A study of Caenorhabditis elegans with 2 samples.

Results

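The genes described here encode 7 fatty acid desaturases, fat-1 to fat-7, and 3 fatty acid elongases, elo-1, elo-2 and elo-6, of Caenorhabditis elegans. They are 10 of the 19985 protein-coding genes annotated in Ensembl WBcel235 and were chosen by name, with earlier results of these data known. Each gene was examined from 5 kb upstream of its 5' end to its own end, and every peak summit in that region was taken from 4 peak lists of a chromatin immunoprecipitation (ChIP-seq) of the nuclear hormone receptor NHR-102.

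The animals were hermaphrodites of strain OP463, genotype unc-119(tm4063) III; wgIs463, in which wgIs463 is an insertion that produces NHR-102 with a GFP-FLAG tag at its C terminus. They were harvested as L4 larvae, 50 hours after starved L1 larvae resumed growth, and the tagged protein was precipitated from whole animals with an anti-GFP antibody according to the submitters' description, while the antibody label names nhr-102. The series had 1 group with 2 biological replicates, so that no condition could be compared with another. The labels name neither the promoter nor the tissue of expression of the fusion, and an untagged strain was not analysed here. The lists used, all in build ce11, were that of the peaks that passed the irreproducible discovery rate step of the authors (the IDR list, 2796 peaks), a pooled list and a list for each replicate, with 30000 entries each. Signals are the authors' own values and are read within a list only, and read depth is unknown from these files.

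Desaturases insert double bonds into fatty acyl chains and elongases lengthen the chains, and in C. elegans both kinds of enzyme act in turn to make long polyunsaturated fatty acids from saturated precursors. The intestine is the main site of fat synthesis and storage in the worm. Several nuclear hormone receptors, NHR-49 and NHR-80 among them, are known to activate the genes fat-5, fat-6 and fat-7.

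An IDR summit lay in the region of 9 of the 10 genes (90.0%, exact Clopper-Pearson 95% interval 55.5 to 99.75%, counting error only). The same rule found one for 18.7% of all protein-coding genes, for 16.9% of those as long as the members (1347 to 3168 bp) and for 16.2% of those on chromosomes IV and V, where all 10 members lie. The genes with a summit were fat-1, fat-2, fat-3, fat-4, fat-5, fat-6, fat-7, elo-1 and elo-6, and the gene without one was elo-2. The members are not independent of each other, since fat-3 and fat-4 shared 1 summit and fat-1 and fat-2 are neighbours on chromosome IV. The members were also chosen with earlier results of these data known, so the interval and these shares are not a test of an excess. In all there were 9 different summits, with signals from 127 at elo-1 to 252 at fat-2 and ranks from 1699 to 509 in the IDR list. A promoter window from 1000 bp upstream to 200 bp downstream of any of the gene's own annotated 5' ends held a summit for 3 of the 10 members, fat-4, elo-1 and elo-6, against 8.95% of all protein-coding genes. The fat-4 summit counted only through a short annotated transcript, and lay 2243 bp downstream of the gene's outermost 5' end.

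Stretches of sequence around 8 of the 9 summits follow because several of these summits lie over 1000 bp from the member's 5' end, where the gene alone does not tell which DNA was recovered. The sequence is that of the RefSeq assembly WBcel235 on the strand of the gene, and capitals mark TGATAA, a core site of GATA transcription factors, or its reverse complement TTATCA. The first 3 are 300 bases long and the others are the 101 bases centred on the summit. The fat-1 stretch is chrIV:13314256-13314555, that of fat-2 chrIV:13322498-13322797, that shared by fat-3 and fat-4 chrIV:9801522-9801821, and the distal one of fat-2 chrIV:13318892-13318992, all on the plus strand. The fat-5 stretch is chrV:17721878-17721978 and that of elo-1 chrIV:9526142-9526242, both on the plus strand, while that of fat-6 is chrIV:11916995-11917095 and that of elo-6 chrIV:5388905-5389005, both on the minus strand. The ninth summit, upstream of fat-7, lies in an untranslated region and is not printed.
fat-1: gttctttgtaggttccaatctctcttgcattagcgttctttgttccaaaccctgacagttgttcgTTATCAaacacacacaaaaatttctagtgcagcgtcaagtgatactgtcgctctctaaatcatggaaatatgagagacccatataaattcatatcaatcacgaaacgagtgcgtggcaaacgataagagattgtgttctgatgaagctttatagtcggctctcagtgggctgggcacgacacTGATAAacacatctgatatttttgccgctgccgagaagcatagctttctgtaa
fat-2: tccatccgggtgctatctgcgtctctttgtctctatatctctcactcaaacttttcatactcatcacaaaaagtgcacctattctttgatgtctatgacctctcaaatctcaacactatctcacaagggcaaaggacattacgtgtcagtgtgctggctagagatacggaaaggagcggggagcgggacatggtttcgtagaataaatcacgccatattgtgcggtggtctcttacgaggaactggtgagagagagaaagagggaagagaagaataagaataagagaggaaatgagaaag
fat-3 and fat-4: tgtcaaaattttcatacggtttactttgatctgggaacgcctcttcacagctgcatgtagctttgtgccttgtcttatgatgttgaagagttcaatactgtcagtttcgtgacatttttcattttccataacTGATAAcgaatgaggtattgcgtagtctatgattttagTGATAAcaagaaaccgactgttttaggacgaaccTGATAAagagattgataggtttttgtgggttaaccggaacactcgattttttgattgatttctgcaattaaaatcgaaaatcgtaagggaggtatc
fat-2, distal: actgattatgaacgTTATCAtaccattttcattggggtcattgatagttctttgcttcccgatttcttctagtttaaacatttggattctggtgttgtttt
fat-5: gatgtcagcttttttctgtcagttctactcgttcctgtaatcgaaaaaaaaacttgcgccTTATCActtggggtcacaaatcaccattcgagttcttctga
fat-6: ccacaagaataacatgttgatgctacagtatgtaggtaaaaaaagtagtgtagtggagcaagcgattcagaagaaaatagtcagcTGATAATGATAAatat
elo-1: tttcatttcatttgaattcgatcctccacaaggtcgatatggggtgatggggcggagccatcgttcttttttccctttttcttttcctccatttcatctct
elo-6: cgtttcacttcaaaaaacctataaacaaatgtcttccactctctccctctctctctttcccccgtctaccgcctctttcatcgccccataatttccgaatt

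**Figure D1:**
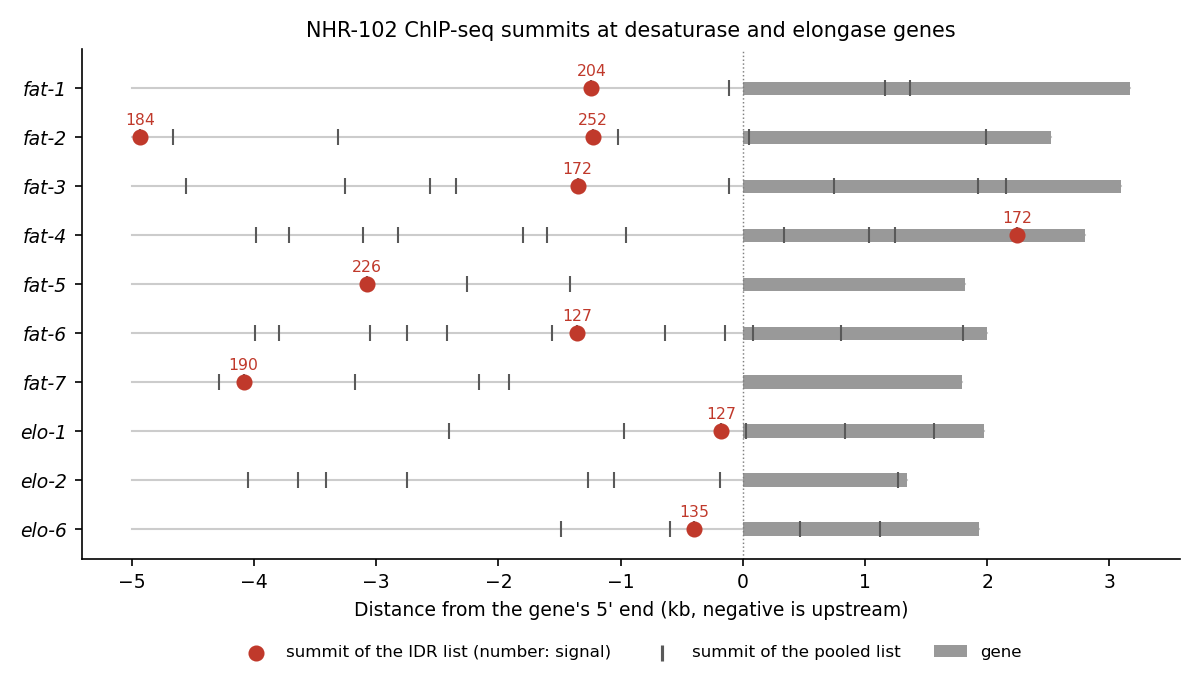
Peak summits across each gene and the 5 kb upstream of it, plotted as distance from the gene's 5' end in kb, with the genes as grey bars, summits of the pooled list as ticks and summits of the IDR list as red points labelled with their signal. Of the 10 genes, elo-2 has no red point, and the IDR summits of fat-1, fat-2, fat-3 and fat-6 nearest to the gene stand between 1225 and 1358 bp upstream.

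The strongest member summit was that of fat-2, and its neighbour fat-1 had the third strongest, after fat-5. The gene fat-2 (WBGene00001394, chromosome IV, 13323873 to 13326395, plus strand) encodes the desaturase that turns oleic acid into linoleic acid. Its main summit stood 1225 bp upstream of the 5' end, in intergenic sequence, with an IDR signal of 252 and rank 509. In the replicate lists the peak had a signal of 133.5 and rank 505 in replicate 1, and 120.2 and rank 578 in replicate 2. The peaks ranked directly around it, at signals from 251.4 to 252.3, had as their nearest 5' ends those of T04C12.8, the mitochondrial gene ND1, ogt-1 and the ribosomal protein gene rpl-6. A second IDR summit in the fat-2 region, 4931 bp upstream, had a signal of 184 and rank 928, with ranks 1091 and 1112 in replicates 1 and 2. It stood near the edge of the 5 kb limit and only 131 bp beyond the end of fat-1, whose 5' end, 3298 bp away, was the nearest of any protein-coding gene. The fat-2 region was the only one among the members with 2 or more IDR summits, against 5.04% of all protein-coding genes.

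The gene fat-1 (WBGene00001393, chromosome IV, 13315644 to 13318811, plus strand) encodes the desaturase that places a double bond near the methyl end of polyunsaturated chains, an activity that mammals lack. Its summit stood 1238 bp upstream, also between genes, 13 bp further from the gene than the main summit of fat-2 from its own. The IDR signal was 204 and the rank 765. The replicates placed this summit at bases 0 and 5 bp from the IDR summit but ranked it differently, 1402 in replicate 1 with a signal of 77.75 and 522 in replicate 2 with a signal of 127.3. Between this summit and the gene, the pooled list held a weak one 111 bp upstream of the 5' end (signal 36.25, rank 11885 of 30000).

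The genes fat-3 and fat-4 lie head to tail on chromosome IV and shared a single IDR summit. The product of fat-3 (WBGene00001395, 9803023 to 9806119, plus strand) is the front-end desaturase that acts on linoleic acid, and that of fat-4 (WBGene00001396, 9799429 to 9802226, plus strand) carries out the last desaturation towards arachidonic and eicosapentaenoic acid. The summit was in an intron of fat-4, 2243 bp downstream of that gene's outermost 5' end, 233 bp upstream of the start of a short annotated fat-4 transcript and 1351 bp upstream of fat-3. Its IDR signal was 172 and its rank 1040. Signals in the replicates were 83.7 and 91.4, at ranks 1239 and 983. No other IDR summit lay within 61974 bp of the edges of the fat-3 region. Weaker summits of the pooled list stood closer to fat-3, 114 bp upstream and 749 bp downstream of its 5' end, with signals of 71.15 and 71.16. Neither had the same standing in both replicates: the upstream one ranked 3340 in replicate 1 and 12723 in replicate 2, and the downstream one 8080 and 2555. Of the members, fat-4 alone had an IDR summit inside the gene, as did 4.10% of all protein-coding genes.

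The genes fat-5, fat-6 and fat-7 encode the desaturases that insert the first double bond, fat-5 with a preference for palmitic acid and the closely related fat-6 and fat-7 for stearic acid. Each region held 1 IDR summit, and each summit was nearer to the 5' end of another gene. The summit of fat-5 (WBGene00001397, chromosome V, 17725004 to 17726818, plus strand) was the strongest of the 3, with a signal of 226 and rank 621. It lay 3076 bp upstream between genes, and the 5' end of the chemoreceptor gene str-77, which is transcribed in the same direction, was 2981 bp away on the other side. Replicate signals were 108.5 and 114.5, at ranks 773 and 645. No protein-coding gene lay between this summit and fat-5.

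The summit of fat-7 (WBGene00001399, chromosome V, 7151353 to 7153146, minus strand) stood 4084 bp upstream, with a signal of 190 (189.8 to 4 digits) and rank 885. The replicates ranked it almost equally, 990 and 999, with signals of 94.95 and 90.59. It was in the 5' UTR of ugt-39, a gene of the UDP-glucuronosyltransferase family that is transcribed away from fat-7, 35 bp downstream of an annotated 5' end of that gene. A further protein-coding gene, F10D2.10, lies between ugt-39 and fat-7. No pooled summit was found within the fat-7 gene itself.

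The summit of fat-6 (WBGene00001398, chromosome IV, 11913692 to 11915687, minus strand) stood 1358 bp upstream, with a signal of 127 and rank 1686. It was 92 bp upstream of the 5' end of ZK822.10 on the opposite strand, and the small gene ZK822.9 lies between it and fat-6. The replicate signals of 78.4 and 48.1 gave ranks 1372 and 2896, the latter just past the 2796 strongest peaks of replicate 2. A pooled summit in an intron of fat-6, 801 bp downstream of the 5' end, had a signal of 84.8 and was not in the IDR list, whose lowest signal was 90.5. That intronic summit ranked 2318 in replicate 1 and 5740 in replicate 2. An IDR summit just outside the region, 93 bp beyond the end of fat-6, had a signal of 98.8 and rank 2455. Others lay 601 bp beyond the end of fat-7 (signal 146.5, rank 1347) and 374 bp beyond that of elo-6 (signal 105.1, rank 2250). Shared sequence between fat-6 and fat-7 was limited at the scale of short reads: 99.2% of the 36-base words in fat-6 and 99.15% of those in fat-7 occurred once in the genome, and in the intervals of all 9 IDR peaks every such word was unique.

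Of the elongase genes, 2 had an IDR summit in the promoter window. The enzyme made from elo-1 lengthens polyunsaturated chains between the steps of fat-3 and fat-4. Its summit (elo-1, WBGene00001239, chromosome IV, 9526366 to 9528336, plus strand) stood 174 bp upstream, at a pair of overlapping short noncoding RNA genes, F56H11.8 and F56H11.11. The signal was 127 (126.6 to 4 digits) and the rank 1699, the lowest of the 9 summits. Replicate signals of 75.75 and 49.48 gave ranks 1465 and 2749.

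The product of elo-6 acts with elo-5 on branched-chain fatty acids. The summit of elo-6 (WBGene00001244, chromosome IV, 5386629 to 5388559, minus strand) stood 396 bp upstream, in the noncoding RNA gene F41H10.36, with a signal of 135 and rank 1522. It differed most between the replicates. In replicate 2 the peak had a signal of 98.0 and rank 865 with its summit at the same base. In replicate 1 the nearest summit, 27 bp away, had a signal of 40.2 and rank 4341, and a stronger one with a signal of 53.7 and rank 2656 lay 182 bp away, 214 bp upstream of the gene.

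The gene elo-2 (WBGene00001240, chromosome IV, 17466062 to 17467408, minus strand) encodes the elongase that acts on palmitic acid. No IDR summit lay in its region, and the nearest one was 184407 bp beyond the region's edge, downstream of the gene. On the upstream side chromosome IV ends at 17493829, and the last pooled peak on it ended at 17473127. The strongest pooled summit, 188 bp upstream, had a signal of 40.5 and rank 10047 with a -log10 q of 0.866, where the IDR list began at a signal of 90.5. Replicate 2 had a summit 226 bp upstream at rank 5547, and the strongest summit of replicate 1 in the region was 902 bp upstream at rank 11039. At this unknown depth a weak peak at elo-2 was not detectable as reproducible, which does not show that the gene was free of NHR-102.

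In the pooled list, which holds background as well as peaks, the regions of the 10 members contained 3 to 12 summits with a median of 6.5. All protein-coding genes had a median of 1 and an upper quartile of 4, and the genes as long as the members had the same median and upper quartile. The lowest number was at fat-5 and the highest at fat-6, each with 1 IDR summit. Several of the pooled summits in the fat-6 region lay in neighbouring genes, and some of those of fat-3 and fat-4 were the same.

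**Figure D2:**
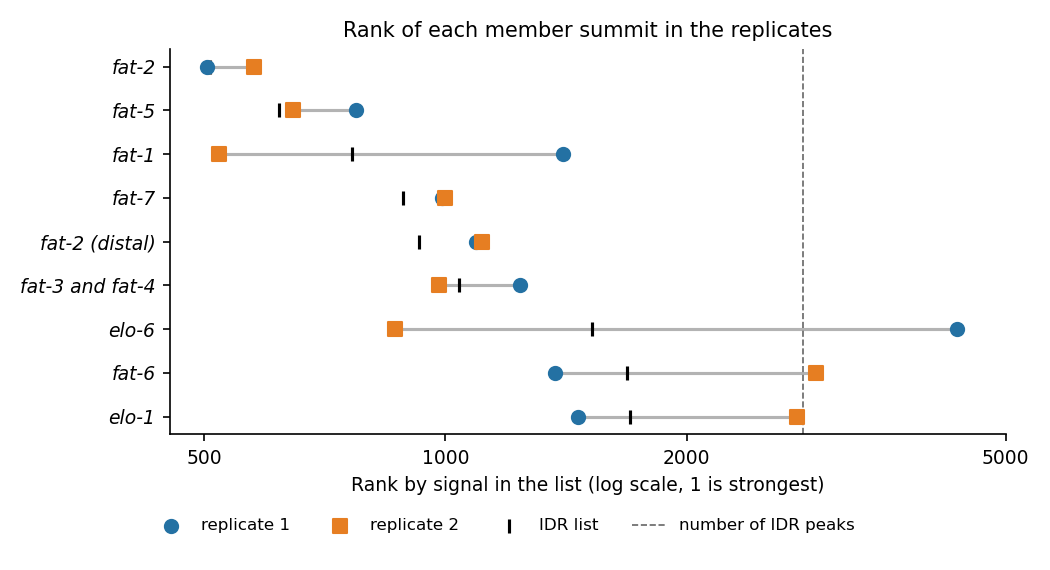
Rank of each of the 9 IDR summits by signal in the lists of replicate 1 (circles) and replicate 2 (squares), on a log axis where 1 is the strongest, with the rank in the IDR list as a black tick and the number of IDR peaks (2796) as a dashed line. The 2 replicates lie close together at fat-7, the distal fat-2 summit and the main fat-2 summit and farthest apart at elo-6, where replicate 1 is at 4341 and replicate 2 at 865.

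Both replicates contained all 9 summits, as they did 2737 of the 2796 IDR peaks. The IDR list was itself made from these replicate lists, so this is no independent support for the 9. Their positions differed from the IDR summit by 0 to 36 bp in replicate 1 and 0 to 21 bp in replicate 2. The ratio between the ranks in the replicates had a median of 1.26 and ran from 1.01 at fat-7 to 5.02 at elo-6, while over the 2737 IDR peaks found in both replicates the median was 1.47 with quartiles of 1.20 and 2.00. A ratio as large as that of elo-6 was seen in 3.95% of those peaks. Neither replicate was stronger throughout: replicate 1 gave the better rank at both summits of fat-2 and at fat-6, fat-7 and elo-1, and replicate 2 at fat-1, fat-3 and fat-4, fat-5 and elo-6. Among the 2796 strongest peaks of replicate 1 alone, 9 of the 10 genes had a summit in the region, against 18.7% of all protein-coding genes, and among those of replicate 2 alone 8 of the 10 against 18.7%. The gene lost with replicate 2 was fat-6, and elo-2 had no summit in either.

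The position of the summits relative to the 5' end was then compared with that in all genes. A summit between 1500 and 1001 bp upstream was found for fat-1, fat-2, fat-3 and fat-6, 4 of the 10 members, against 1.60% of protein-coding genes, the bins of 500 bp being those used for the whole region. This bin is named because it held the most members, so these shares are not a test of a preferred position. In the last 500 bp before the 5' end, the upstream bin with the most genes in the genome (5.68%), the members with one were elo-1 and elo-6. Each summit was next given only to the gene of the nearest annotated 5' end, and only if it lay in that gene's own region. Under this rule 5 of the 10 members kept one (fat-1, fat-2, fat-4, elo-1 and elo-6), against 9.66% of all protein-coding genes. The summits of fat-6 and fat-7 then went to neighbouring genes, and that of fat-3 to fat-4. The fat-5 summit and the distal fat-2 summit lay past the end of the gene with the nearest 5' end and went to no gene. A peak list does not show which gene a distant site acts on.

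**Figure D3:**
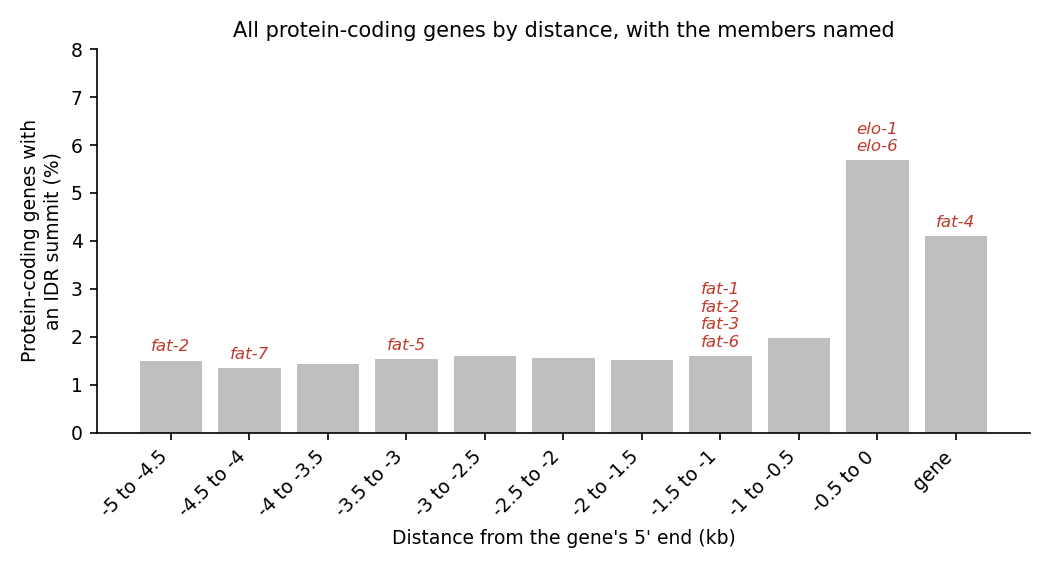
Share of all 19985 protein-coding genes with an IDR summit in each 500 bp bin upstream of the 5' end and inside the gene (grey bars, in percent), with the members that have one written above the bar. Between 1.5 and 1 kb upstream, the bin with the most members, the bar stands at 1.60% and carries 4 members.

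The sequences around the summits were searched on both strands for 6 short motifs, spelled here with the factors they are known for. TGATAA, the GATA site, occurred within 150 bp of 8 of the 9 summits, against 36.5% of the 2773 nuclear IDR summits. The exception was the main summit of fat-2, which is also the strongest. The windows of the members had a median GC content of 37.2% against 39.5% for all nuclear IDR summits, and among summits whose GC content lay within the range of the members 43.2% had the motif. Windows of the same length tiled across the regions of the members, clear of any IDR peak, held it in 54 of 203 cases (26.6%), at a median GC content of 35.2%. Within 50 bp it was found at 4 of the 9 summits, against 16.9% of all nuclear IDR summits: the distal one of fat-2, that of fat-3 and fat-4, and those of fat-5 and fat-6.

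The number and arrangement of these GATA sites varied among the members. The window shared by fat-3 and fat-4 had 3 in the same orientation, the nearest beginning 18 bp before the summit. At fat-6 the sites formed a direct pair with no base between them, 35 to 46 bp past the summit on the gene's strand. At fat-5 a single site began 10 bp past the summit. At fat-1 and fat-7 the sites flanked the summit, at 85 bp before and 97 bp after it for fat-1 and at 57 bp before and 53 bp after it for fat-7. The windows of elo-1 and elo-6 had 1 site each, which ended 105 and 95 bp before the summit, and the 101 bases around both summits contained no GATA site and were rich in pyrimidines on the gene's strand, with 67.3% C or T at elo-1 and 72.3% at elo-6 against 34.65% to 62.4% at the others.

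The nuclear receptor half-site AGGTCA occurred within 150 bp of 1 of the 9 summits, the main one of fat-2, against 8.44% of nuclear IDR summits. The forkhead site GTAAACA occurred at 2 of the 9, those of fat-6 and elo-1, against 5.48%. The HNF4-type half-site AAGTCCA (2.13% of nuclear IDR summits), the E-box CACGTG (12.3%) and the AP-1 type site TGACTCA (3.35%) were at none of the 9. A match is a description of the letters in the window and not evidence of a bound factor.

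**Figure D4:**
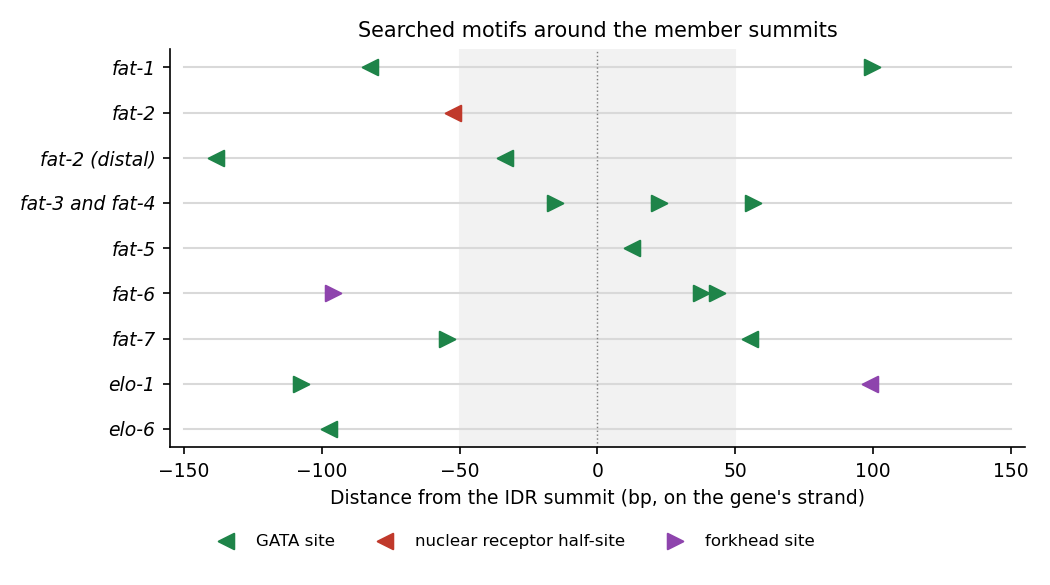
Positions of the searched motifs within 150 bp of each of the 9 IDR summits, in bp on the strand of the gene, with the arrowheads pointing right for motifs on the gene's strand and left for those on the other strand, and the 50 bp on either side of the summit shaded. GATA sites appear in 8 of the 9 rows, the main summit of fat-2 being without one, and the other motifs that were found appear at fat-2, fat-6 and elo-1.

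The surrounding pathway was described through 7 lists, in which 46 further genes were matched by name. An IDR summit lay in the region of 21 of them, against 18.7% of all protein-coding genes. These lists were written with earlier results of these data known, and several of their genes are far longer than the members, so that more summits can fall in their regions.

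In the 3 lists of genes that supply or complete the same reactions, 2 of 6, 2 of 6 and 2 of 5 had a summit, beside the 18.7% of all protein-coding genes. Among the other elongases these were elo-3 and elo-7. For elo-3 it lay inside the gene (signal 128.5), at rank 878 in replicate 2 and with no covering peak in replicate 1. For elo-7 it was the elo-1 summit, 3755 bp upstream. The genes elo-4, elo-5, elo-8 and elo-9 had none. Of 6 partner enzymes, cytb-5.1, a cytochrome b5 of the kind that passes electrons to desaturases, had 3 summits, the strongest 259 bp upstream with a signal of 270.3 and rank 437. For cytb-5.2 a summit 4270 bp upstream had a signal of 101.7 and lay nearest to dhod-1. No summit was found for hpo-19, let-767, hpo-8 or art-1, the last 3 of which act in the elongation cycle. Of 5 genes for fatty acid synthesis, acly-1, an ATP citrate lyase, had a summit 1396 bp upstream (signal 316) and mlcd-1, malonyl-CoA decarboxylase, one 621 bp upstream (signal 139) that lay nearest to idhg-1. The genes of acetyl-CoA carboxylase, pod-2, and fatty acid synthase, fasn-1, had none, although their lengths of 15921 and 11175 bp make their regions larger than those of the members.

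Regulators of desaturase genes had a summit in 7 of 10 cases, against 18.7% of all protein-coding genes. The strongest were at skn-1 (signal 294.5, 5 summits), a stress response factor, elt-2 (208, 477 bp upstream), the GATA factor of the intestine, nhr-66 (199.6), a partner of NHR-49, and hlh-30 (167), a regulator of lysosomal and fat genes. The others, named after their values were seen, were nhr-49 (153, 313 bp upstream), daf-16 (140.4) and the mediator subunit mdt-15 (94.1, nearest to W04D12.1), while nhr-80, nhr-13 and the sterol regulatory factor sbp-1 had none. The genes nhr-66, hlh-30, daf-16 and skn-1 span 9346 to 26206 bp, against at most 3168 bp for a member. Their strongest summits lay inside the gene, from 3110 bp (skn-1) to 10634 bp (hlh-30) downstream of the outermost 5' end. In the promoter window 5 of the 10 regulators had a summit, against 8.95% of all protein-coding genes.

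The 3 lists further along are to be read beside the 18.7% of all protein-coding genes with a summit. Branched-chain fatty acid supply had 1 of 3, the member elo-6 itself. That count was 2 without replicate 2 (18.7% of all genes) and 3 with 10 kb upstream (26.5% of all genes). Phospholipid and fat assembly had 5 of 12, led by the phosphatidate phosphatase gene lpin-1 (signal 353, nearest to letm-1, rank 169 in replicate 1 and no covering peak in replicate 2), the acyltransferase gene dgat-2 (230.5, nearest to fbxa-108), the S-adenosylmethionine synthetase gene sams-1 (173.5, nearest to C49F5.13) and pmt-1 (129), which methylates phosphoethanolamine. These values are for the strongest summit of each gene. The region of lpin-1 held 4 IDR summits, 3 of them nearest to lpin-1 itself, and that of sams-1 held 3, with 2 nearest to sams-1. Of 6 genes for the formation and turnover of eicosanoids, which are made from polyunsaturated fatty acids, cyp-13A12 (signal 485, 69 bp upstream), the epoxide hydrolase gene ceeh-1 (368.5, nearest to zip-2) and the P450 reductase gene emb-8 (233) had one. Each of the 3 was stronger than 8 of the 9 member summits, and cyp-13A12 and ceeh-1 were stronger than all 9. In the promoter window these lists had 1 of 3, 2 of 12 and 2 of 6, in the order given, against 8.95% of all protein-coding genes.

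**Figure D5:**
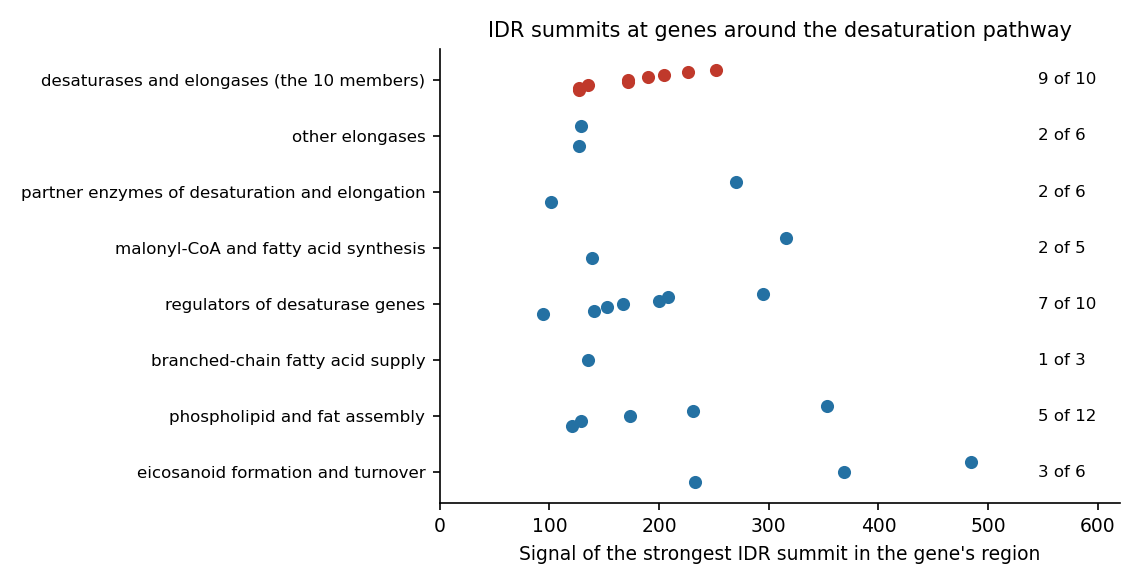
Signal of the strongest IDR summit in the region of each gene, for the 10 members (red) and for the 7 pathway lists (blue), with the number of genes that have a summit at the right. The members lie between 127 and 252, below the strongest genes of 5 of the lists.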

How the data were processed

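ChIP-seq of GFP-tagged NHR-102 was available as peak lists of 2 replicates, which form 1 group by their labels. Per the notes deposited with each sample, each replicate list was made from that replicate's alignments and 1 further file that also served for control-normalised tracks, the pooled list from both replicates' alignments and the same file, and the IDR list from these 3 lists. Neither these notes nor the labels name the aligner, the peak caller or the cutoff of the IDR step. The signal and the -log10 q of each peak are the authors' deposited values, so that they rank peaks within a list and give no read depth. In the IDR list every -log10 q stood at 2.91.

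Summits were placed on the Ensembl release 115 annotation of WBcel235, the sequence of ce11. All peaks used ended inside the chromosomes of that reference. The ce10 lists were left out, since their build differs. The 5' end of a gene is its outermost annotated one; promoter windows use all annotated 5' ends of the gene's own protein-coding transcripts, and nearest genes those of all genes. A replicate peak was matched to an IDR summit if its interval covered it, taking the nearest summit. The assignment was tested on simulated data. No statistical test was run, as the design gives 1 group. The members, lists, motifs and bins were chosen with earlier results of these data known. Genes named are the members, the genes nearest to their summits, up to 4 genes of each list by signal, and the neighbours in rank of the strongest member summit. List genes with no summit, and regulators beyond the first 4, are named to complete small counts and were chosen after their values were seen. The list gene tlcf-1 matched no name. Calculations used Python 3.11.15.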

Additional observations from a re-analysis of the deposited data

How the results depend on the processing

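The count of 9 members with a summit in their region became 7 with 2 kb upstream (fat-5 and fat-7 lost), 9 with 10 kb, 9 with any overlap of the peak interval and 6 within the 1398 strongest IDR peaks (fat-6, elo-1 and elo-6 lost). It was 8 without replicate 1 and 9 without replicate 2. It was 3 in the promoter window and 5 with the nearest 5' end, settings that by construction admit fewer positions. The 9 different summits became 3 and 5 in those settings, 9 without replicate 1 and 10 without replicate 2. The 21 pathway genes became 11 in the promoter window, 13 within the 1398 strongest peaks, 23 without replicate 1 and 22 without replicate 2. The share of all protein-coding genes, 18.7%, was 13.1% with 2 kb, 26.5% with 10 kb, 8.95% in the promoter window, 9.66% with the nearest 5' end, 19.9% with any overlap, 11.1% within the 1398 strongest peaks and 18.7% without either replicate. It was 16.2% among genes on chromosomes IV and V and 16.9% among genes as long as the members. Within 50 bp in place of 150 bp, TGATAA was at 4 in place of 8 of the member summits and at 16.9% in place of 36.5% of nuclear IDR summits, and the latter was 43.2% within the members' GC range. Matching elo-6 to the strongest covering peak gave a rank ratio of 3.07 in place of 5.02. The subsets by chromosome, gene length and GC content, the window of 50 bp and the second matching of elo-6 were added after seeing the data. No paired analysis was possible because the series has 1 group. Depth is unknown, which limits any statement on absent peaks.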
